A study of Oreochromis niloticus with 6 samples.

Results

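Aquaporins are channels of the plasma membrane and of internal membranes through which water, and in some members glycerol and other small solutes, pass down their gradients. In the gill of a freshwater fish, water enters across the epithelium along the osmotic gradient, and aqp3 is known from the basolateral membrane of ion-transporting cells in the gills of several teleosts. The family was followed in RNA-seq libraries of gill from GIFT, the genetically improved farmed tilapia bred from Nile tilapia, Oreochromis niloticus. Members were chosen by gene name alone, as the rows of the gene table whose name begins with aqp and a digit, which gave 13 of 40538 rows under 11 distinct names. They comprised the water channels aqp1a.1, aqp1a.2, aqp8a.1 and 2 rows of aqp4, the aquaglyceroporins aqp7, aqp9, aqp9b, aqp10a and 2 rows of aqp3a, and aqp11 and aqp12 of the unorthodox subfamily that sits mainly in internal membranes in mammals.

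The 6 libraries fell into 3 labelled control and 3 labelled hypoxia stress, with no difference in strain or genotype given between them. Control tanks were held at 5 mg/L dissolved oxygen, and in the exposed tanks nitrogen lowered it to near 1 mg/L within 30 min. Gills were taken at 96 h. One label text gives 3 tanks per group with 15 fish each and another gives 4 replicates per group with 30 fish per 500 L tank, and the labels give neither the age of the fish nor the tank behind each library nor any pooling of fish. The p-values therefore measure the spread between these libraries, which may be technical. The study asked how gill transcripts differ after this exposure.

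Levels are FPKM, fragment counts corrected for transcript length and library size, so levels of different genes can be set side by side. FPKM summed to 455738, 438405 and 438599 in control replicates 1 to 3 and to 466826, 481149 and 483691 in hypoxia replicates 1 to 3. Every total under the hypoxia label thus lay above every control total. The main test kept these totals, and the TPM scale, an alternative below, sets them equal. The number of sequenced fragments is unknown. Depth relative to hypoxia replicate 1 was judged by the most frequent ratio of values among rows above 0 and under 0.15 FPKM in both libraries. By this measure hypoxia replicate 1 was the shallowest library. Control replicates 1 to 3 had 1.21, 1.09 and 1.21 times its depth, and hypoxia replicates 2 and 3 had 1.06 and 1.07 times its depth. Every control was thus deeper than every library labelled hypoxia. The prolyl hydroxylase gene egln3, a known target of the hypoxia-inducible factor, averaged 69.8 FPKM under the control label and 3.25 FPKM under the hypoxia label (SD 37.04 and 0.699, n = 3 each), a direction opposite to its known induction by low oxygen. Of 24 tested rows of known targets of that factor, a list chosen after seeing the data, 0 were higher under the hypoxia label by limma at an adjusted p of 0.05, 6 were lower and 18 did not pass, beside 3.46% of all tested rows that were higher and 3.30% that were lower. The lower rows were egln3, 2 rows of ddit4, pfkfb4a, pfkfb4b and 1 row of pgk1. The other pgk1 row had a log2 change of 0.85 (limma adjusted p = 0.0932) and a mxi1 row one of 0.81 (limma adjusted p = 0.0548). The median over the 24 rows was -0.37, and 16 of the list's 24 symbols were matched. Every direction below rests on the labels. Among 19 rows of ionocyte markers, which mark the ion-transporting cells of gill, the ammonia transporter rhcga lay at 96.8 to 154.6 FPKM, while the 2 cftr rows stayed at or below 1.17 FPKM and foxi3b and slc12a10 matched no row. In these bulk libraries, fewer cells of a type and less RNA per cell cannot be told apart.

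The gill aquaporin signal came almost entirely from 1 aqp3a row and aqp1a.1, and no aquaporin row differed between the groups by the test. aqp3a (MSTRG.24527) averaged 46.8 FPKM over the 6 libraries and aqp1a.1 averaged 27.0 FPKM, while every other row averaged under 2 FPKM. Together the pair made up 88.7% to 95.3% of the summed aquaporin FPKM of a library. Of the 13 rows, 5 reached the mean of 1 FPKM needed for testing with limma on log2(FPKM + 1), and 0 of these 5 passed a Benjamini-Hochberg adjusted p of 0.05, beside 6.77% of all 25111 tested rows. At an unadjusted p under 0.05 the count was also 0 of 5, where 25.4% of all tested rows lay. None of the 5 had groups that did not overlap, which 33.2% of all tested rows had. The median log2 change of the 5 rows, labelled hypoxia minus labelled control, was 0.08, beside 0.05 for all tested rows, and 3 of the 5 estimates were above 0. With 5 rows these shares are descriptions.

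**Figure D1:**
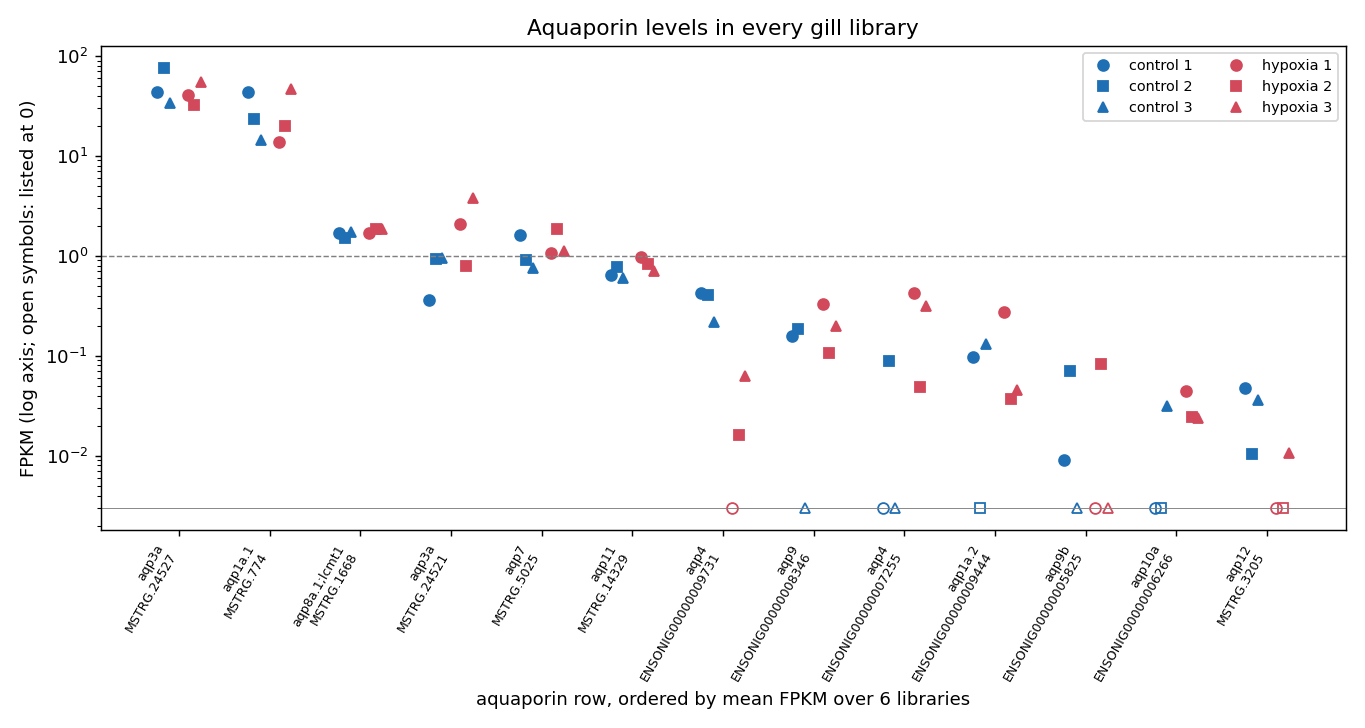
FPKM of the 13 aquaporin rows on a log axis, one symbol per library, control in blue and hypoxia in red. Open symbols on the grey line are values listed at 0 and the dashed line is the mean of 1 FPKM needed for testing. aqp3a (MSTRG.24527) and aqp1a.1 lie between 13.8 and 75.9 FPKM, and no other row exceeds 3.80 FPKM.

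aqp3a encodes an aquaglyceroporin that passes water, glycerol and urea, and the table's own ontology places both of its rows at the basolateral plasma membrane. Its abundant row, MSTRG.24527, was at 43.3, 75.9 and 33.5 FPKM in control replicates 1 to 3 and at 40.3, 32.3 and 55.2 FPKM in hypoxia replicates 1 to 3. The highest library was a control and the lowest was labelled hypoxia, and the ranges of the groups overlapped (33.5 to 75.9 and 32.3 to 55.2 FPKM). The group means were 50.9 ± 22.2 FPKM (SD, n = 3) and 42.6 ± 11.7 FPKM (n = 3), a log2 change of -0.20 ± 0.34 (SE) with a 95% interval of -1.03 to 0.63 (limma, adjusted p = 0.748). In linear terms of FPKM + 1 that interval runs from 0.489-fold to 1.54-fold, so a fall or a rise of that size lies within the error. The sign rested on control replicate 2: without it the log2 change was 0.12 (adjusted p = 0.826). Over all alternatives the adjusted p lay between 0.477 and 0.973. Its mean ranked 992 among the 40538 rows of the table.

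The second aqp3a row, MSTRG.24521, carries its own transcript identifier and lay far lower. It was at 0.363, 0.936 and 0.961 FPKM in control replicates 1 to 3 and at 2.08, 0.794 and 3.80 FPKM in hypoxia replicates 1 to 3. Hypoxia replicates 1 and 3 stood above every control, while hypoxia replicate 2 lay inside the control range. The means were 0.753 ± 0.338 and 2.22 ± 1.51 FPKM (SD, n = 3 each), a log2 change of 0.79 ± 0.40 (SE, 95% interval -0.19 to 1.77) that did not pass (limma adjusted p = 0.281). Without hypoxia replicate 2 the log2 change was 1.15, with a limma adjusted p of 0.0981. Without hypoxia replicate 3 it was 0.44 (limma adjusted p = 0.576), and with a pseudocount of 0.1 it was 1.30 (limma adjusted p = 0.281). The adjusted p ran from 0.0981 to 0.576 over all alternatives. The abundant row exceeded this one by 34.9 to 119-fold in the control libraries and by 14.6 to 40.7-fold in those labelled hypoxia, ranges that overlap. Near-identical copies of a gene can share reads, so how the aqp3a signal divides between the 2 rows is uncertain. Summing both rows gave a log2 change of -0.16 ± 0.34 (SE, limma adjusted p = 0.809), an alternative chosen after seeing the data.

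aqp1a.1 encodes a classical water channel, known in mammals from red blood cells and vessel endothelium, and annotated in the table to the apical plasma membrane. Its level was 43.3, 23.6 and 14.5 FPKM in control replicates 1 to 3 and 13.8, 19.9 and 46.9 FPKM in hypoxia replicates 1 to 3. Each group held 1 library above 40 FPKM and another below 15 FPKM. The means were nearly equal, 27.1 ± 14.7 FPKM and 26.9 ± 17.7 FPKM (SD, n = 3 each), with a log2 change of -0.06 ± 0.55 (SE, limma adjusted p = 0.958). The 95% interval of -1.41 to 1.28 was the widest of the 5 tested rows and covers 0.378-fold to 2.43-fold, so equal levels are not shown. Its sign turned to positive without control replicate 1 (0.33) and also without hypoxia replicates 1 (0.30) or 2 (0.053).

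On the log2(FPKM + 1) scale, aqp1a.1 had the largest spread within groups of the 5 tested aquaporin rows. Its within-group SD was 0.82 on the log2 scale, larger than that of 92.1% of the 11390 rows averaging 5 FPKM or more, and that of aqp3a (MSTRG.24527) was 0.50, larger than that of 84.1% of them. The median over all tested rows was 0.27. With a pseudocount of 0.1, the SE of the log2 change was larger in the low aqp3a row (MSTRG.24521, 0.66) than in aqp1a.1 (0.57). Erythrocyte marker RNA also varied. The 14 rows of these markers, 11 of them hemoglobin rows, summed to 38367, 2985 and 3397 FPKM in control replicates 1 to 3. In hypoxia replicates 1 to 3 they summed to 24450, 59109.6 and 31997.5 FPKM. Control replicate 1, the control with the most aqp1a.1, was also the control with the highest erythrocyte sum. Hypoxia replicate 2, the highest in that sum, held 19.9 FPKM of aqp1a.1. The ranking depended on the marker. alas2 was highest in control replicate 1 (170.9 FPKM, against 96.2 FPKM in hypoxia replicate 2). slc4a1a was highest in hypoxia replicate 2 (43.8 FPKM, against 32.3 FPKM in control replicate 1). The remaining non-hemoglobin row, slc4a1b, was highest in control replicate 2 at 20.8 FPKM. It was at 9.58 FPKM in control replicate 1 and 9.98 FPKM in hypoxia replicate 2. Of the hemoglobin rows, hbbe2 was lower under the hypoxia label without overlap (means 3.47 and 1.08 FPKM). The 9 rows of endothelial and pillar cell markers summed to 73.3 to 85.1 FPKM in the control group and 73.6 to 97.9 FPKM in the group labelled hypoxia. Their most abundant row, vwf, averaged 23.2 FPKM in the controls and 39.5 FPKM under the hypoxia label. The median log2 change of the 8 tested rows was -0.25. Without overlap 1 row was higher and 2 lower, beside 26.9% of all rows in either direction. None of the 14 or of the 9 rows was at 0 in all libraries. Whether blood or vessel content had a part in the aqp1a.1 levels was not tested. With the hemoglobin rows left out and the libraries rescaled, the log2 change of aqp1a.1 was -0.09 (limma adjusted p = 0.939, over all its alternatives 0.579 to 0.997).

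The aqp3a row MSTRG.24527 was above aqp1a.1 in 6 of 6 libraries. The margin was far from constant: the ratio was 3.22 in control replicate 2 and 1.00 in control replicate 1, where both rows were at 43.3 FPKM, and it was 2.93, 1.62 and 1.18 in hypoxia replicates 1 to 3. aqp1a.1 supplied 22.6% to 47.2% of the summed aquaporin FPKM in the controls and 22.6% to 42.5% in the libraries labelled hypoxia. The summed FPKM of the 13 rows was 91.7, 104.3 and 52.5 in control replicates 1 to 3 and 60.9, 57.9 and 110.3 in hypoxia replicates 1 to 3, a mean of 82.8 ± 27.03 against 76.4 ± 29.5 (SD, n = 3 each). High sums (above 90 FPKM) occurred in control replicates 1 and 2 and in hypoxia replicate 3, and the other 3 libraries lay at or below 60.9 FPKM.

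**Figure D2:**
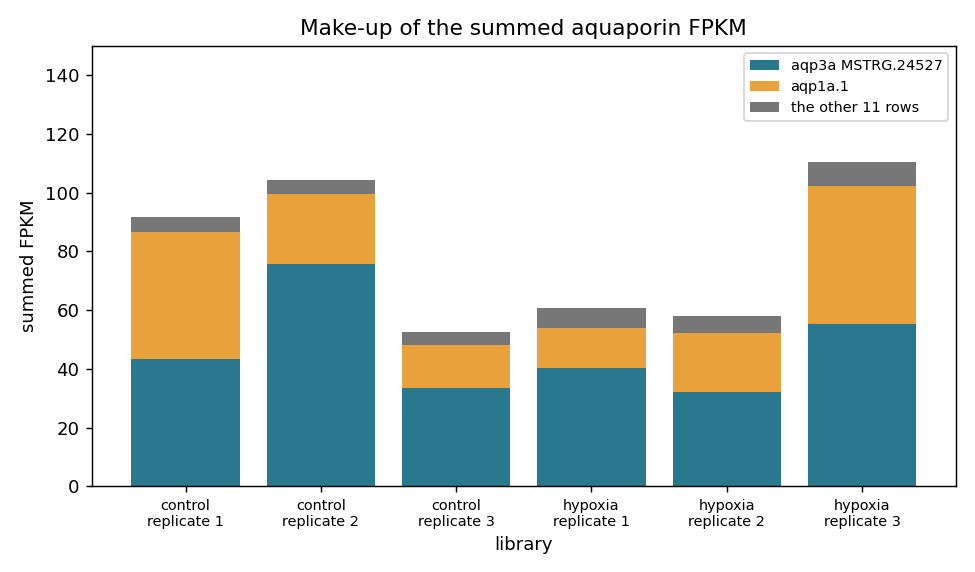
Summed FPKM of the aquaporin rows in each library, divided into aqp3a (MSTRG.24527), aqp1a.1 and the other 11 rows. The sum runs from 52.5 to 110.3 FPKM, the other 11 rows make up 4.69% to 11.3% of it, and high and low sums occur in both groups.

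The row named aqp8a.1;lcmt1 (MSTRG.1668) merges aqp8a.1, a channel that in mammals also passes ammonia and hydrogen peroxide, with lcmt1, a protein methyltransferase gene, and its reads cannot be assigned to either. It was the steadiest of the tested rows, at 1.68, 1.52 and 1.74 FPKM in control replicates 1 to 3 and 1.68, 1.86 and 1.86 FPKM in hypoxia replicates 1 to 3. The log2 change was 0.08 ± 0.15 (SE, 95% interval -0.29 to 0.45, limma adjusted p = 0.773). aqp7, an aquaglyceroporin that releases glycerol from fat cells in mammals, was at 1.62, 0.907 and 0.760 FPKM in control replicates 1 to 3 and at 1.08, 1.86 and 1.12 FPKM in hypoxia replicates 1 to 3. The highest aqp7 value came from a library labelled hypoxia and the next from a control. Its log2 change was 0.17 ± 0.26 (SE, 95% interval -0.46 to 0.81, limma adjusted p = 0.718). With 1 library left out it ran from 0.023 without hypoxia replicate 2 to 0.35 without control replicate 1 (limma adjusted p 0.492 to 0.966).

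**Figure D3:**
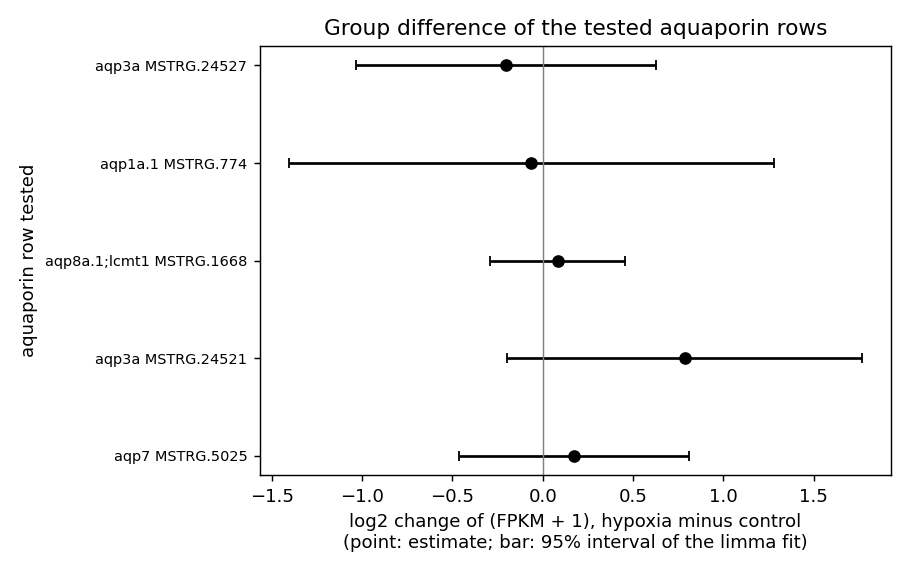
log2 change of FPKM + 1, labelled hypoxia minus labelled control, for the 5 tested aquaporin rows, with points as estimates and bars as 95% intervals of the limma fit. Every interval includes 0, the one of aqp8a.1;lcmt1 is the narrowest (-0.29 to 0.45) and the one of aqp1a.1 the widest (-1.41 to 1.28).

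The other 8 rows averaged under 1 FPKM and were not part of the main test; their highest single value was 0.970 FPKM. aqp11 was present in every library, at 0.598 to 0.778 FPKM in the controls and 0.712 to 0.970 FPKM in the libraries labelled hypoxia, overlapping ranges. The remaining 7 rows were each listed at 0 in at least 1 library, and an exact 0 can be a failed estimate. In a fit without a filter on low values, 0 of the 13 aquaporin rows passed an adjusted p of 0.05, beside 2.61% of all rows, and 1 of 13 had an unadjusted p under 0.05, beside 19.4% of all rows. That row was 1 of the 2 rows of aqp4.

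aqp4 is the water channel of astrocytes and fast muscle fibres in mammals, and 2 rows carried its name, neither of which passed the test. ENSONIG00000009731 was at 0.428, 0.402 and 0.218 FPKM in control replicates 1 to 3 and at 0, 0.016 and 0.0621 FPKM in hypoxia replicates 1 to 3. It was the 1 row of the 13 whose groups did not overlap, a property of 16.6% of all rows under a mean of 1 FPKM. Without the filter its log2 change was -0.39 (limma adjusted p = 0.0720), which did not pass, and a pseudocount of 1 compresses differences at such low levels. ENSONIG00000007255 was at 0, 0.0878 and 0 FPKM in control replicates 1 to 3 and at 0.422, 0.049 and 0.315 FPKM in hypoxia replicates 1 to 3. Here hypoxia replicates 1 and 3 exceeded every control and hypoxia replicate 2 did not, the same arrangement as in the low aqp3a row (no-filter fit, limma adjusted p = 0.286). The 2 aqp4 rows thus pointed in opposite directions. Skeletal muscle markers were higher under the hypoxia label: of 16 tested rows, 6 passed as higher and 0 as lower. Their 19 rows summed to 356 to 470 FPKM in the controls and to 706.5, 713.7 and 865.7 FPKM in hypoxia replicates 1 to 3. None of the 19 was at 0 in all libraries. Higher calls made up 3.46% of all tested rows. The part of muscle in either aqp4 row was not tested.

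Of the remaining low rows, the aquaglyceroporin aqp9 (ENSONIG00000008346), a glycerol channel of liver in mammals, ranged from 0 to 0.333 FPKM, and its relative aqp9b from 0 to 0.0834 FPKM. aqp10a, whose human relative is known from intestine, ranged from 0 to 0.0447 FPKM. aqp1a.2, a tandem relative of aqp1a.1 in zebrafish, ranged from 0 to 0.274 FPKM, and aqp12, known from pancreas in mammals, from 0 to 0.0477 FPKM. The groups overlapped in each of these 5 rows. The lowest aqp1a.1 value (13.8 FPKM) lay far above the highest of aqp1a.2 (0.274 FPKM).

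In the order of mean levels, 2 gaps separated rows whose ranges over the 6 libraries did not overlap. The lowest aqp1a.1 value (13.8 FPKM) exceeded the highest value of the next row, aqp8a.1;lcmt1 (1.86 FPKM), and the lowest aqp11 value (0.598 FPKM) exceeded the highest of the aqp4 row ENSONIG00000009731 (0.428 FPKM). All the other neighbours in the order overlapped. By subfamily, the 6 aquaglyceroporin rows summed to 52.9 ± 22.3 FPKM in the controls and 46.5 ± 12.8 FPKM in the libraries labelled hypoxia, the 5 water channel rows to 29.2 ± 14.8 and 29.1 ± 17.7 FPKM, and aqp11 with aqp12 to 0.702 ± 0.0782 and 0.838 ± 0.124 FPKM (SD, n = 3 each). Outside the name rule, 4 rows carried a related annotation, 1 without a gene name and 3 of mipa and mipb, the lens aquaporin genes. The highest of them was a mipb row, at 1.23 FPKM in hypoxia replicate 1 and at 0.318 to 0.494 FPKM in the other 5 libraries.

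Rows most like the 3 most abundant aquaporin rows across the 6 libraries were sought among 7560 named rows averaging 5 FPKM or more. Likeness was the root mean square difference of log2(FPKM + 1) after centring each row. The row aqp3a (MSTRG.24527) itself deviated from its mean by 0.42. Its nearest rows were the complement gene c1qa (0.17), si:dkey-40m6.14 (0.19) and a low gapdh row, at 3.65 to 8.04 FPKM (0.20). For aqp1a.1, with a deviation of 0.67, they were fam65c (0.24), the kinase gene sik2b (0.29) and the RNA-binding protein gene rbms1 (0.36). For the merged row aqp8a.1;lcmt1, which averaged 1.72 FPKM with a deviation of 0.063, they were cnot8 (0.022), stx6 (0.024) and tcea1 (0.034). c1qa was, like aqp3a, highest in control replicate 2 and hypoxia replicate 3, at 30.6 and 32.5 FPKM against 14.3 to 18.6 FPKM in the other 4 libraries. With 6 libraries and 7560 candidates, some rows lie close to any profile.

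Genes that work beside aquaporins gave a varied picture, from lists chosen by symbol. Of 19 tested rows of glycerol handling, 1 rose, 2 fell and 16 did not pass (median log2 change -0.17). The called share was 15.8%, beside 6.77% of all tested rows. mgll, the lipase that frees glycerol from monoacylglycerol, fell from 38.5 ± 2.43 to 17.5 ± 2.32 FPKM (limma adjusted p = 0.0130), and gk5, of the glycerol kinase family, fell from 18.1 ± 0.964 to 11.5 ± 1.03 FPKM in MSTRG.1132 (limma adjusted p = 0.0316). A neighbouring gk5 row, MSTRG.1133, was at 4.88 and 2.55 FPKM (limma adjusted p = 0.0863). gpd1b, a glycerol-3-phosphate dehydrogenase, rose from 1.53 ± 0.251 to 5.21 ± 1.45 FPKM (limma adjusted p = 0.0254). No other gpd row of the list passed. The most abundant, gpd1c, was at 34.0 and 41.4 FPKM (limma adjusted p = 0.234). gpd1a was at 4.67 and 3.50 FPKM (limma adjusted p = 0.411) and the gpd2 row MSTRG.11199 at 10.4 and 6.71 FPKM (limma adjusted p = 0.0808). Of these calls gk5 was lost with any 1 library left out, gpd1b with any but hypoxia replicate 2, and mgll without control replicate 2 or hypoxia replicates 1 or 3 (adjusted p up to 0.112, 0.0737 and 0.0560). The list count was then 0 to 3. Cell type markers were compared between the same libraries as the list rows given here and below. In the ionocyte, erythrocyte, endothelial and pillar, and mucous cell lists 0 tested rows were called, beside 6.77% of all tested rows. The 3 mucous rows still summed to 65.9 to 68.6 FPKM in the controls and 109.4 to 284.7 FPKM under the hypoxia label, without overlap. Most of that was agr2, at means of 62.0 and 180.6 FPKM (limma adjusted p = 0.0698). The groups overlapped in foxa3 and spdef, and muc5ac, muc5b and muc2 matched no row. Of the 19 skeletal muscle rows described with aqp4, 13 lay wholly higher in the libraries labelled hypoxia and 1 wholly lower. Of 9 tested chondrocyte rows, 1 rose and 0 fell, beside 3.46% of all tested rows that rose and 3.30% that fell. Of all 10 rows, 5 were higher without overlap and 0 lower, beside 26.9% of all rows whose groups did not overlap in either direction. The most abundant, sox9a, averaged 20.9 FPKM in the controls and 19.3 FPKM under the hypoxia label. A col2a1a row (MSTRG.2061) reached 35.6 FPKM in hypoxia replicate 1. The 10 rows summed to 29.1 to 33.4 FPKM in the controls and 35.1 to 81.0 FPKM in the libraries labelled hypoxia, with 0 of them at 0 in all libraries. Of 10 tested rows of surface and basal epithelium markers, 0 rose and 1 fell, beside 3.30% of all tested rows that fell. That row, cldn1, averaged 35.5 FPKM in the controls and 18.9 FPKM under the hypoxia label (limma adjusted p = 0.0421). The most abundant row, krt4, averaged 1013.7 and 1585.3 FPKM (limma adjusted p = 0.112), and the next, krt5, 474.3 and 693.4 FPKM (limma adjusted p = 0.0605). The 10 epithelium rows summed to 2181 to 2601 FPKM in the controls and 2507 to 3508 FPKM under the hypoxia label, ranges that overlap. Without overlap, 3 epithelium rows were higher and 3 lower. The part of these tissues in the list changes, rises or falls, was not tested.

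Of 33 tested rows of the osmotic response list, 2 rose, 2 fell and 29 did not pass (median log2 change -0.07). Called rows made up 12.1% of them, beside 6.77% of all tested rows. The kinases oxsr1b and stk39, close relatives that act on cation-chloride cotransporters, moved in opposite directions. oxsr1b fell from 15.6 ± 2.12 to 7.49 ± 0.768 FPKM (limma adjusted p = 0.0211). stk39 rose from 2.39 ± 0.531 to 5.23 ± 0.618 FPKM (limma adjusted p = 0.0355). An oxsr1 row (MSTRG.27055) was at 11.9 FPKM in the controls and 12.6 FPKM under the hypoxia label (limma adjusted p = 0.718). The taurine transporter slc6a6a (MSTRG.12616) rose from 2.88 ± 0.280 to 7.65 ± 2.51 FPKM (limma adjusted p = 0.0391), and trpv4, a cation channel that responds to cell swelling, fell from 13.3 ± 0.334 to 7.64 ± 1.48 FPKM (limma adjusted p = 0.0425). trpv4 and stk39 were lost with any 1 library left out, slc6a6a with any but hypoxia replicate 2, and oxsr1b without control replicates 1 or 2 or hypoxia replicates 1 or 3 (adjusted p up to 0.134, 0.124, 0.109 and 0.0829). stk39 was also lost on the TPM scale (adjusted p = 0.0539).

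The Rh glycoprotein list holds ammonia transporters of the gill among its 5 tested rows, of which 1 rose and 4 did not pass. Of all tested rows 3.46% rose. The median log2 change of the list, 0.76, was that of rhbg, the row that rose. Those that did not pass were at 1.16 (rhag), 1.35 (rhd), -0.04 (rhcga) and -0.56 (rhcgb). rhbg was at 193.8, 142.4 and 144.1 FPKM in control replicates 1 to 3 and at 294.9, 251.8 and 260.6 FPKM in hypoxia replicates 1 to 3, groups that did not overlap. The limma adjusted p of 0.0418 became 0.0593 on the TPM scale, 0.0605 with median-of-ratios scaling and 0.0515 with the hemoglobin rows left out, and of the single libraries left out the call held without control replicate 1 and was lost without any of the other 5 (adjusted p up to 0.139). Of 29 tested rows of ionocyte ion transport, 0 rose and 1 fell, beside 3.30% of all tested rows that fell. Of the 9 list rows called, gpd1b, stk39, slc6a6a, trpv4 and rhbg were lost with no filter on low values (limma adjusted p = 0.0528 to 0.0710). Called shares of these lists stand beside the 6.77% of all tested rows, and no difference between a list and the aquaporins was tested.

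**Figure D4:**
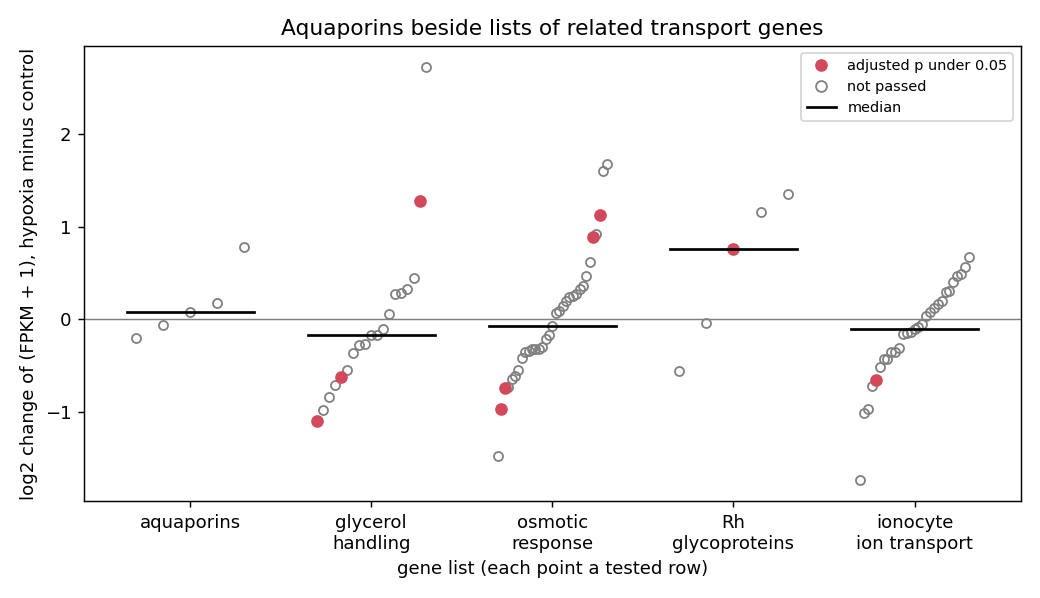
log2 change of FPKM + 1, labelled hypoxia minus labelled control, for each tested row of the aquaporins and of 4 lists of related genes; filled points passed an adjusted p of 0.05 and black lines are medians. No aquaporin point is filled, and the filled points of the lists lie on both sides of 0 (mgll at -1.10, gpd1b at 1.27).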

How the data were processed

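The gene table holds 1 FPKM column per library, 6 in all, and 0 value columns were left unmatched. The authors deposited FPKM values. The submitters' processing notes name HISAT and StringTie without versions. The genome build and annotation were not given in the sources used here, and positions are not reported. Rows are assembled loci (MSTRG, 7 of the 13 members) or Ensembl genes (6), and assembly can merge or split genes. Names came from the table.

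FPKM is not a count, so log2(FPKM + 1) was tested with limma 3.58.1 under R 4.3.3 (lmFit, then eBayes with its trend option). The test was two-sided with the group as the single term. It covered the 25111 rows averaging 1 FPKM or more, and p-values were adjusted over them by Benjamini-Hochberg. Fold changes on this scale understate those of low rows. The fit was checked on simulated data. Depth is unknown, so precision is the spread over 3 libraries. Members and lists were chosen with earlier results of these data known. Named were all members, each list's up to 5 called rows with the smallest p, and the 3 nearest rows of the 3 most abundant members. Most marker lists were given by their sums. Single marker rows and some further list rows were also named, outside this rule. Alternatives changed the pseudocount, the filter, the scaling, the variance model, the replicate block and the libraries included. One list row that this rule names is not reported here. No aquaporin sequences were used here.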

Additional observations from a re-analysis of the deposited data

How the results depend on the processing

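No aquaporin row passed under any of the 17 alternatives (0 in each). Estimates near 0 changed sign: aqp8a.1;lcmt1 to -0.020 and aqp1a.1 to 0.0055 with quantile normalization, aqp3a (MSTRG.24527) to 0.12 without control replicate 2, and aqp1a.1 to 0.33, 0.30 and 0.053 without control replicate 1, hypoxia replicate 1 and hypoxia replicate 2. With 1 library left out they ran from -0.45 to 0.12 for that aqp3a row and from -0.55 to 0.33 for aqp1a.1. The difference of summed aquaporin FPKM, -6.47, ranged from -23.5 to 4.28 with 1 library left out. Over all rows, 870 higher and 829 lower calls became 593 and 941 on the TPM scale and 701 and 1033 with median-of-ratios scaling. The total of 1699 became 1058 with no filter, 2701 with library weights, and 260 to 1627 with 1 library left out, where fewer samples were fitted. The called rows of glycerol handling (3) became 5 with library weights and 0 to 3 with 1 library left out, and those of the osmotic response (4) became 1 with no filter and 0 to 3 with 1 library left out. Those of the Rh glycoproteins (1) became 0 with no filter, on the TPM scale, with median-of-ratios scaling or without the hemoglobin rows, 2 with a minimum mean of 5 FPKM, and 0 to 2 with 1 library left out. Those of ionocyte ion transport (1) became 2 with a minimum mean of 5 FPKM or quantile normalization, 3 on the TPM scale, with median-of-ratios scaling or library weights, and 0 to 3 with 1 library left out. The cause of these changes was not tested.

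With the replicate number as a block, 2 rows of the table were called and 0 in each of the 4 lists and among the aquaporins (adjusted p of the 9 list rows 0.0860 to 0.154). The labels do not say whether a shared number pairs 2 libraries. Deviations from the group means of same-numbered libraries correlated at -0.056, -0.044 and -0.116 across genes. Centring within groups holds near 0 the average over all pairs of a control with a hypoxia library, not that of the same-numbered pairs. Values of differently numbered libraries are not given. The same-numbered values, all below 0, show no sign of pairing, and alone they do not settle whether the numbers pair the libraries. The block also spends degrees of freedom. Depth in fragments is unknown, which leaves the 8 aquaporin rows under 1 FPKM without a limit of detection.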
